A study of Mus musculus with 13 samples.

Results

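The genes described here are the heat shock protein (HSP), DnaJ and CCT chaperone genes of the mouse oocyte, chosen by symbol: every gene of the count tables whose symbol begins with Hsp followed by a letter from a to h or a digit, with Dnaja, Dnajb or Dnajc, or with Cct2 to Cct8. The rule found 84 of 18939 genes, and all 84 also have FPKM values. They comprise 3 HSP90 genes, 11 HSP70 genes, 3 HSP110 genes, the pair Hspd1 and Hspe1, 9 CCT genes, 4 DNAJA, 13 DNAJB and 28 DNAJC genes, 8 small HSP genes and 3 others. The last 3 match the symbol rule but belong to none of these families, and one of them, Hspg2, encodes perlecan, a matrix proteoglycan and not a chaperone.

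Single oocytes were sequenced from 3- to 4-week-old C57BL/6 mice primed with PMSG for 48 h. Fully grown germinal vesicle (GV) oocytes exist with a non-surrounded nucleolus (NSN) or a surrounded nucleolus (SN), named for whether condensed chromatin rings the nucleolus. Every oocyte of all 4 groups was injected with mRNA for the nucleolar protein fibrillarin fused to GFP (FBL-GFP), held at the GV stage with Cilostamide for 6 h and sorted by the FBL-GFP pattern, so no uninjected oocyte serves as a control here. The groups are SN GV (n = 3), NSN GV (n = 3) and metaphase II oocytes matured in culture from each type, SN-MII (n = 4) and NSN-MII (n = 3). Each of the 13 libraries is one oocyte. Which oocytes shared a mouse or a culture is not given, so p-values measure the spread between oocytes only.

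Chaperones help proteins to fold, assemble and avoid aggregation. HSP70 proteins bind and release unfolded stretches in a cycle of ATP hydrolysis that DnaJ proteins (DNAJA, DNAJB, DNAJC) start and that HSP110 proteins help to reset by exchanging the nucleotide. HSP90 proteins act later, on nearly folded clients such as kinases, HSP60 with its lid HSP10 encloses proteins inside mitochondria, and the 8 different subunits of the CCT ring (Tcp1 and Cct2 to Cct8) fold actin and tubulin in the cytosol. NSN oocytes still transcribe and SN oocytes have largely ceased to, and maturation to MII runs on stored transcripts. Single-oocyte libraries here were made from poly(A)-primed cDNA (SMART-seq2), and a change in a read count can be a change in amount or in capture of the transcript, which cannot be told apart.

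Heat shock genes are known for the heat shock element, inverted repeats of a GAA unit that the heat shock factors bind. The exact form with 3 units (GAA, then its reverse complement TTC, then GAA, or TTC, GAA, TTC, with any 2 bases between units) was sought on both strands from 250 bases before to 50 bases after each annotated start. Of the 84 genes, 69 have an entry in the RefSeq promoter table (GRCm38.p6), and 4 of these 69 (5.8%) hold the motif, against 179 of 27025 genes (0.662%) in the whole table. The stretches are shown because these 4 genes moved in different directions between stages, as described below. Capitals mark the motif, and each is written 5′ to 3′ on the strand of its gene.
Hspe1, chr1:55088053-55088082, plus strand: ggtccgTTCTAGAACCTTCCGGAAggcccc
Hspd1, chr1:55088053-55088082, minus strand: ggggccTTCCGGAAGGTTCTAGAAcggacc
Dnajb6, chr5:29735844-29735873, plus strand: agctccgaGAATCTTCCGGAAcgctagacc
Hsph1, chr5:149636279-149636308, minus strand: gctgcagaTTCTGGAAAGTTCtcctcagta

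The Hspd1 and Hspe1 lines are the same 30 bases read from opposite strands, since the 2 genes lie head to head. They hold 2 overlapping matches, the first base lying 89 bases before the Hspe1 start and 144 bases before the Hspd1 start. In Dnajb6 the match begins 46 bases before one annotated start and 127 bases before another. In Hsph1 it begins inside the transcribed region, at base 16 from one start and base 37 from another. A match is a description of letters, not a bound site.

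Libraries held 7140416 to 8846287 expected counts, that is, reads assigned to genes by RSEM. The third NSN-MII library stood apart, with the fewest genes detected (11579) and 12.1% of its counts in 10 genes, against 8.92% to 11.0% in the other MII libraries. Of the GV libraries, the second NSN GV library had the fewest genes detected (12685, against 12964 to 13333). It also held 6.60% of its counts in 10 genes, against 5.47% to 5.88% in the other GV libraries. Summed oocyte markers (10 genes, among them Zp3, Gdf9 and Mos) ranged from 15405 to 25354 CPM. CPM are counts scaled to a common total after each library total was multiplied by its TMM factor. These factors were 1.06 to 1.26 in the GV and 0.799 to 1.01 in the MII libraries, so CPM differences between stages depend on them. At MII the oocyte marker sum was 18694 to 21251 CPM in SN-MII and 15405 to 16326 CPM in NSN-MII oocytes, without overlap. The 12 granulosa and cumulus cell markers summed to 61.5 to 92.3 CPM in GV and 99.0 to 187 CPM in MII libraries, with Foxl2 and Ptx3 at 0 in every library and Amh and Tnfaip6 at 3 counts or fewer. Cyp19a1 supplied most of that sum (37.8 to 67.3 CPM at GV, 77.0 to 158 at MII). Of 5 of these markers tested between stages, Cyp19a1 and Kitl rose and Cyp11a1 fell, from a mean of 2.05 to 0.179 CPM (adjusted p = 0.00344, edgeR), and Fshr was at 0 in every MII library. The part of these cells in the results was not tested.

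Levels between genes were compared as FPKM, which divides by transcript length. At GV Hsp90aa1, which encodes the stress-inducible cytosolic HSP90, had the highest mean of the 84 genes at 1896 ± 227 FPKM (SD, n = 6). Next came Hspa8, the constitutive cytosolic HSP70, at 618 ± 47.6, Dnajb6 at 497 ± 54.7, Dnajc11 at 462 ± 44.3, Dnaja1 at 451 ± 43.0 and Cct5 at 437 ± 33.3, the last 4 within each other's spread. At MII Hsp90aa1 was again highest at 3313 ± 380 FPKM (n = 7), but the genes after it were others: Dnajb14 at 352 ± 165, Dnajb4 at 335 ± 41.8, Hsp90ab1 at 325 ± 33.3 and Dnajc8 at 307 ± 49.7. Hspa8 had dropped out of this upper rank, at 35.7 ± 16.9 FPKM, as had Cct5 at 26.2 ± 7.28.

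Summed over the 84 genes, FPKM was 8251 ± 556 at GV and 7150 ± 232 at MII, which is 1.19% and 1.26% of all FPKM in a library, while the makeup of the sum differed between stages. HSP90 genes made up 26.6% of it at GV and 52.1% at MII, with sums of 1989 to 2655 FPKM in the 6 GV libraries and 3251 to 4161 in the 7 MII libraries. The CCT genes supplied 1102 to 1327 FPKM at GV and 325 to 401 at MII. HSP70 genes supplied 944 to 1040 and 343 to 680, and DNAJC genes 1271 to 1412 and 740 to 876, again without overlap between the stages. DNAJB sums overlapped, at 981 to 1528 against 730 to 1331.

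**Figure D1:**
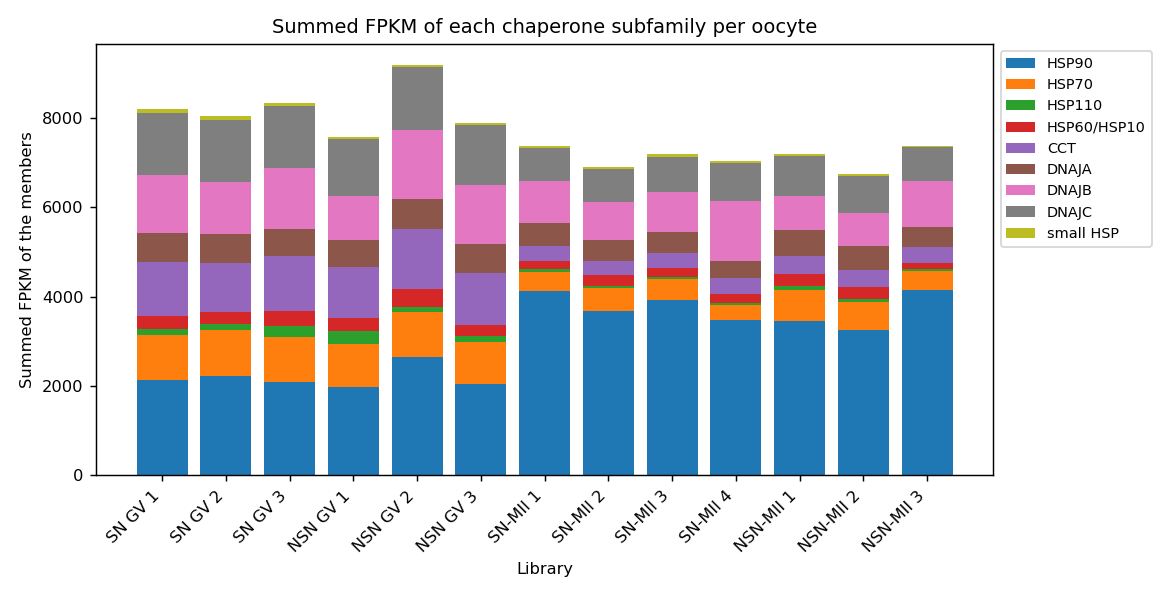
Stacked bars give the summed FPKM of each chaperone subfamily (colours) in each of the 13 single-oocyte libraries (x axis), by oocyte type and stage. The HSP90 segment lies between 1989 and 2655 FPKM in GV and between 3251 and 4161 FPKM in MII oocytes, while the CCT segment lies between 1102 and 1327 and between 325 and 401.

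The higher HSP90 sum at MII depends on the transcript length assigned to Hsp90aa1. Counts per FPKM unit, which follow that length, were scaled to the median of 5280 well-covered genes in each library. For Hsp90aa1 they lay at 0.600 to 0.614 in the GV and at 0.373 to 0.405 in the MII libraries, so that the value at MII was 62.7% of that at GV. Few genes moved that far: 239 of the 5280 (4.53%) and 3 of 44 well-covered chaperone genes (6.82%), the other 2 being Hsph1 (61.5%) and Dnajc14 (67.7%), changed by over 0.5 on the log2 scale. With one length per gene, the HSP90 sum was 2743 ± 293 at GV and 3066 ± 247 at MII, which is 30.7% and 47.7% of the 84 genes' sum. By this measure the sum of the 84 genes was itself lower at MII, at 8927 ± 706 against 6425 ± 199. The larger HSP90 share thus came with a smaller total. Hsp90aa1 itself then supplied 25.0% to 29.1% of that sum at GV and 36.6% to 45.4% at MII. As a plain share of the 84 genes' counts it ranged from 13.8% to 18.1% and from 17.8% to 24.5%, and these ranges touch. Whether a different transcript form of Hsp90aa1 was present at MII was not tested.

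The first comparison asks how these RNAs change as GV oocytes mature to MII, averaged over both oocyte types. Genes were tested with the quasi-likelihood test of edgeR, p-values were adjusted over all genes by the Benjamini-Hochberg method, with 0.05 as the limit for a call. Of the 84 genes, 66 passed the filter on low counts. Among them 17 rose, 31 fell and 18 were not called. Calls were as common in all 11375 genes tested, at 68.6% (31.7% higher, 36.9% lower), so the number of calls says nothing about chaperones. The median log2 fold change was -0.75 for the 66 genes and -0.10 for all genes. With library totals in place of TMM scaling the median of all genes moved to -0.39, and the split became 8 higher and 34 lower. CPM did not overlap between the 6 GV and 7 MII libraries for 7 genes that were higher and 22 that were lower at MII, against 20.9% and 26.5% of all genes.

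**Figure D2:**
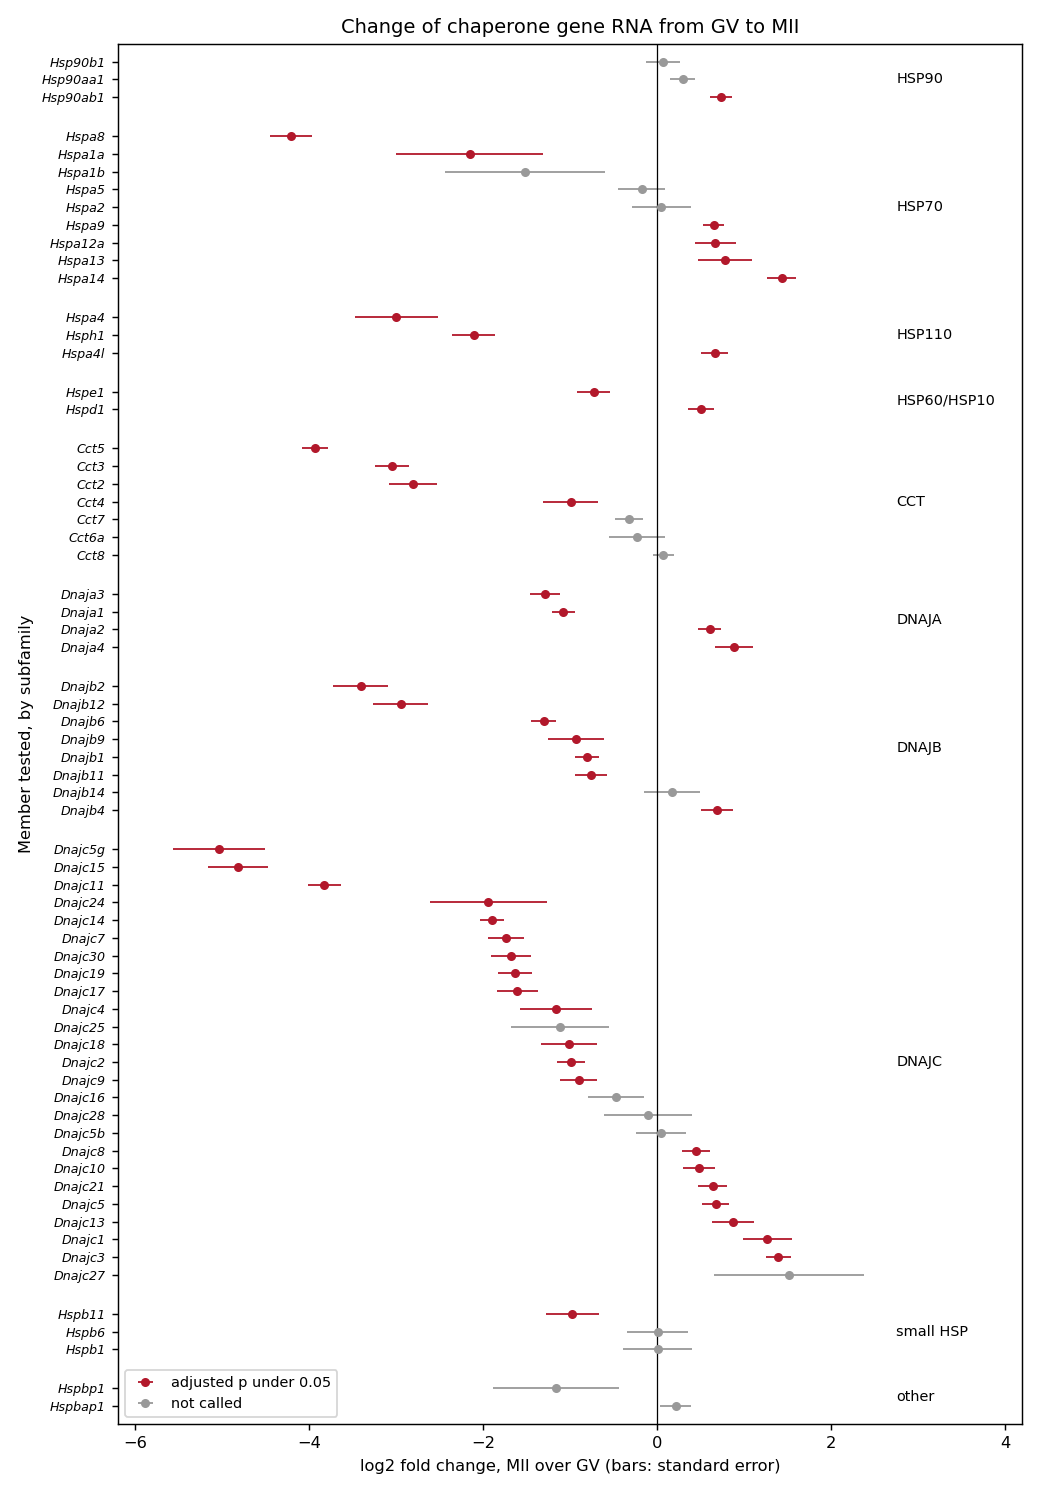
Points give the log2 fold change of MII over GV oocytes (x axis) for the 66 chaperone genes tested, grouped by subfamily, with the standard error as bars. Red points (48 genes) passed an adjusted p of 0.05 in edgeR's quasi-likelihood test and grey points (18 genes) did not. The CCT and DNAJC groups hold both genes near 0 and genes below -3.

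Of the 3 HSP90 genes of the cytosol and the endoplasmic reticulum (ER), 1 rose and 2 were not called. Among all genes tested, 68.6% were called. Hsp90ab1, the constitutive cytosolic form, held 305, 348 and 365 CPM in SN GV, 338, 421 and 430 in NSN GV, 589, 576, 557 and 587 in SN-MII and 544, 671 and 719 in NSN-MII oocytes. Every MII value lay above every GV value, and Hsp90ab1 rose by 0.73 ± 0.124 on the log2 scale (SE, adjusted p = 5.93e-05, edgeR). Hsp90aa1 held 2959, 3035 and 2487 CPM in SN GV, 2191, 3439 and 2718 in NSN GV, 3769, 3293, 3613 and 3475 in SN-MII and 2991, 2720 and 4312 in NSN-MII oocytes. Its stages overlapped, and its log2 fold change of 0.29 ± 0.143 was not called (adjusted p = 0.0786, edgeR). On the log2(FPKM + 1) scale, where the shorter length enters, the same gene was called at 0.80 (adjusted p = 4.87e-06, limma), and with library totals alone its fold change was -0.0072. Leaving out the second NSN GV or the second NSN-MII oocyte gave an edgeR call (adjusted p = 0.0246 and 0.045). Hsp90b1, the form of the ER, spanned 214 to 327 CPM at GV and 169 to 402 at MII, and its fold change of 0.07 was not called.

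Within HSP70, Hspa8 had the largest fall of the subfamily. It stood at 1563, 1653 and 1333 CPM in SN GV and 1061, 1463 and 1483 in NSN GV oocytes, but at 56.9, 76.9, 69.4 and 58.3 in SN-MII and 123, 112 and 35.8 in NSN-MII oocytes. The lowest GV oocyte thus held several times more than the highest MII oocyte. The fitted log2 fold change was -4.21 ± 0.246, an 18.5-fold fall (adjusted p = 3.28e-10, edgeR). Hspa8 supplied 57.0% to 66.5% of HSP70 FPKM at GV and 4.41% to 8.86% at MII. Hspa5 (BiP), the ER chaperone of the subfamily, spanned 422 to 637 CPM at GV and 185 to 756 at MII and was not called (log2 -0.18 ± 0.272). The lowest Hspa5 values, 212 and 185 CPM, were those of the fourth SN-MII and the third NSN-MII library.

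In the opposite direction, Hspa14, an HSP70 relative that works at ribosomes, had a lowest, median and highest CPM of 77.6, 90.9 and 98.7 at GV and 177, 228 and 329 at MII. The stages did not overlap, and it rose by 1.43 ± 0.164 (adjusted p = 8.81e-07, edgeR). Mitochondrial Hspa9 (mortalin) rose by 0.65 ± 0.123 (adjusted p = 0.000173), from 299, 324 and 403 to 369, 492 and 636 CPM. In total 4 of 9 HSP70 genes tested rose, 2 fell and 3 were not called, where 68.6% of all genes were called. The stress-inducible Hspa1a and Hspa1b are near-identical copies between which reads were divided, so their separate values are uncertain. Both were low, at up to 11.6 and 1.77 CPM. Hspa1a was called lower (log2 -2.16 ± 0.85, adjusted p = 0.0326, edgeR), but not by DESeq2 (adjusted p = 0.074), and the call was lost without the second SN GV, the first NSN GV, the third NSN GV, the fourth SN-MII, the second NSN-MII or the third NSN-MII library (adjusted p of 0.0516 to 0.0849). Hspa1b was not called (log2 -1.52) except without the first NSN-MII library (adjusted p = 0.0108).

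**Figure D3:**
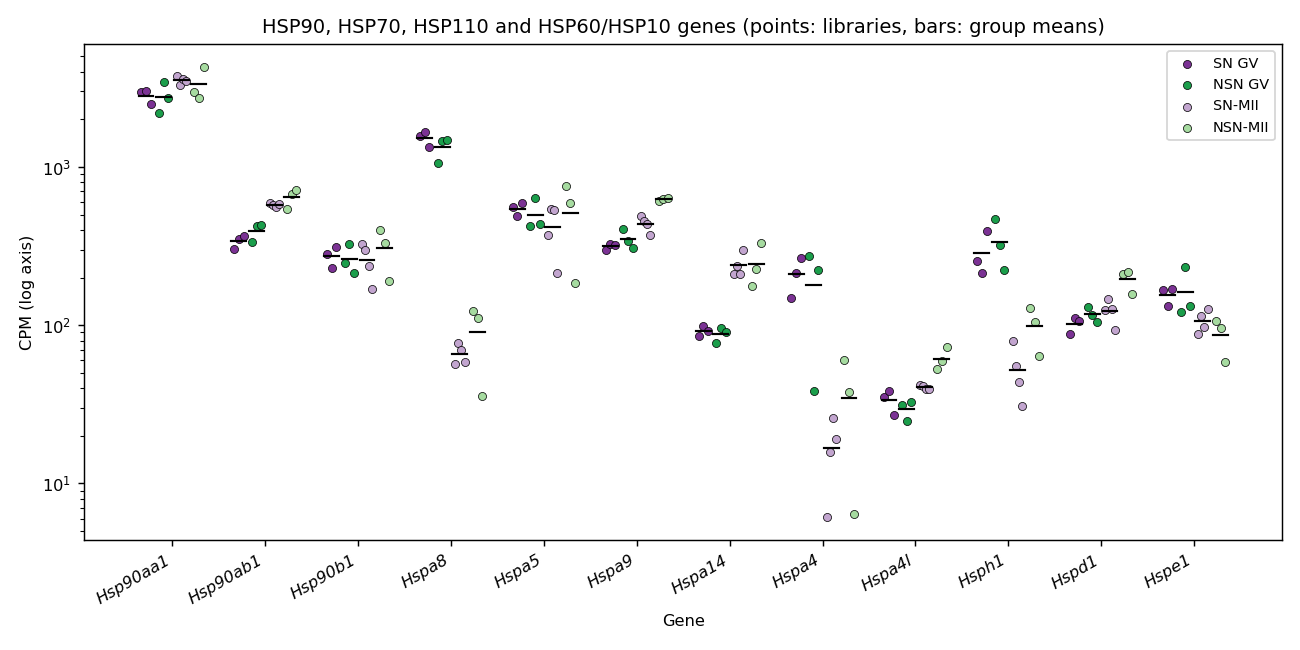
Each point is the CPM (log axis) of one gene in one oocyte for HSP90, HSP70, HSP110, HSP60 and HSP10 genes, coloured by group, and bars mark group means. Hspa8 lies between 1061 and 1653 CPM at GV and between 35.8 and 123 CPM at MII, while Hspa14 and Hsp90ab1 lie higher in every MII oocyte than in any GV oocyte.

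HSP110 proteins serve HSP70 as nucleotide exchange factors, and all 3 genes were called, as were 68.6% of all genes. Hsph1 fell by 2.11 on the log2 scale (SE 0.25, adjusted p = 1.26e-06, edgeR), from 214, 286 and 466 CPM (lowest, median, highest) at GV to 30.6, 63.6 and 129 at MII. Hspa4 fell by 3.0 (SE 0.477, adjusted p = 3.14e-05). Its stages overlapped through the second NSN GV oocyte, at 38.6 CPM where the other 5 GV oocytes held 149 to 275, against 6.10 to 60.2 at MII. Hspa4l moved the other way and rose by 0.66 ± 0.16 (adjusted p = 0.00157), from 25.0, 31.9 and 38.5 to 39.4, 41.8 and 72.4 CPM, without overlap.

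The mitochondrial pair that shares the promoter stretch above also divided. Hspd1 (HSP60) held 88.3, 110 and 106 CPM in SN GV, 130, 117 and 105 in NSN GV, 124, 146, 126 and 92.6 in SN-MII and 209, 218 and 157 in NSN-MII oocytes, and it rose by 0.50 ± 0.148 (adjusted p = 0.0065, edgeR). That call was lost with library totals alone (log2 0.21, adjusted p = 0.289). Hspe1 (HSP10) held 168, 132 and 169 CPM in SN GV, 120, 235 and 133 in NSN GV, 87.8, 114, 97.1 and 126 in SN-MII and 106, 96.1 and 58.6 in NSN-MII oocytes, and fell by 0.73 on the log2 scale (SE 0.189, adjusted p = 0.00259). The ratio of Hspe1 to Hspd1 in FPKM ran from 2.74 to 6.60 at GV and from 1.02 to 4.13 at MII, overlapping through the fourth SN-MII oocyte, which had the 4.13. Of the other genes with the motif, Dnajb6 and Hsph1 both fell, so 1 of the 4 rose.

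The subunits of the CCT ring, which each ring holds in equal number, did not keep to one level. Cct5 held 800, 797 and 783 CPM in SN GV, 595, 879 and 868 in NSN GV, 53.0, 38.6, 47.8 and 39.0 in SN-MII and 66.6, 58.5 and 53.0 in NSN-MII oocytes. It fell by 3.93 on the log2 scale (SE 0.154, adjusted p = 1.21e-11, edgeR), 15.3-fold. Cct3 fell by 3.05 (SE 0.191), Cct2 by 2.81 (SE 0.276) and Tcp1, the subunit the symbol rule misses, by 2.65 (SE 0.137), each without overlap between stages and with an adjusted p of 1.61e-07 or less. Cct4 fell by 0.99 (SE 0.315, adjusted p = 0.0101), with overlapping stages of 52.2 to 216 and 36.2 to 94.6 CPM.

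Cct8, by contrast, held 361, 381 and 326 CPM in SN GV, 293, 388 and 376 in NSN GV, 343, 360, 335 and 392 in SN-MII and 340, 396 and 427 in NSN-MII oocytes. These ranges overlap almost wholly, and the log2 fold change of 0.07 ± 0.125 was not called. It was -0.22 with library totals, where the gene was called (adjusted p = 0.0419), and -0.11 on the FPKM scale. Cct6a (log2 -0.23 ± 0.32) and Cct7 (log2 -0.33 ± 0.161, adjusted p = 0.0821, edgeR) were not called either, though DESeq2 called Cct7 (adjusted p = 0.0421), as did edgeR with DESeq2 size factors (adjusted p = 0.0462) or library totals (log2 -0.62, adjusted p = 0.00992) and limma on log2(FPKM + 1) (adjusted p = 0.0498). Cct7 was also called by edgeR without the third NSN GV or the first NSN-MII library (adjusted p = 0.046 and 0.0447). In FPKM the ratio of Cct5 to Cct8 was 2.55 to 3.03 in the GV libraries and 0.131 to 0.252 in the MII libraries, and with one length per gene it was 2.61 to 3.10 and 0.128 to 0.252. GENCODE M21 labels the Cct6a gene a processed transcript, and its expected counts were not whole numbers in all 13 libraries. Whether its reads stand for the coding mRNA was not tested. Cct6b, the testis form of the subunit, and Cct8l1 stayed too low to test, at 1.68 CPM or less.

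**Figure D4:**
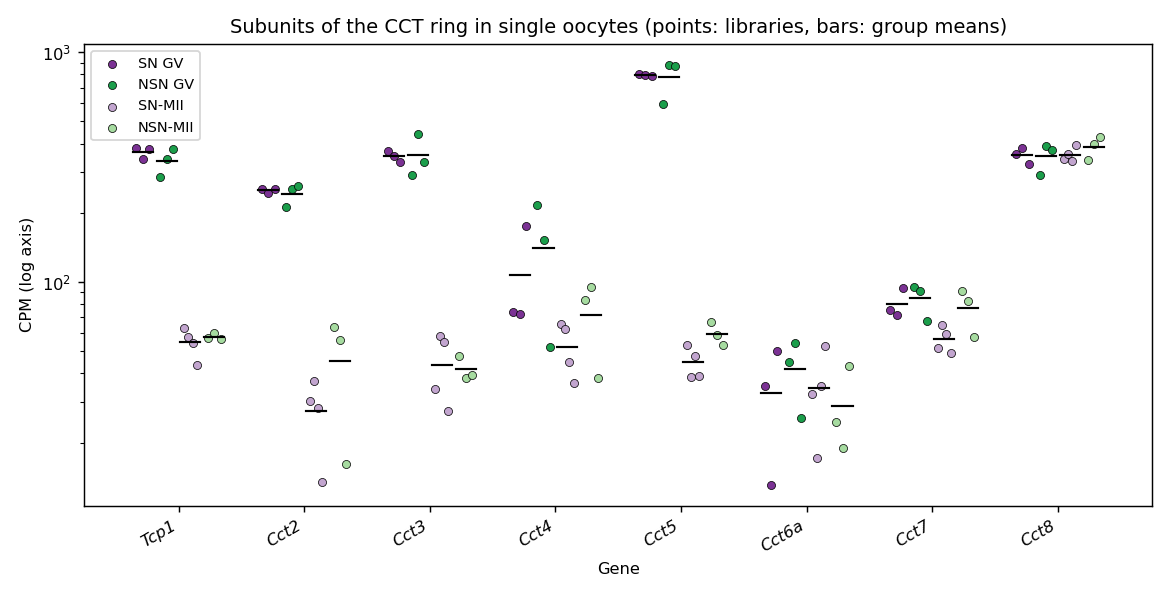
Each point is the CPM (log axis) of one subunit gene of the CCT ring in one oocyte, coloured by group, with bars at group means. Cct5 lies between 595 and 879 CPM at GV and between 38.6 and 66.6 CPM at MII, while Cct8 stays between 293 and 427 CPM in all 13 oocytes.

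DNAJA genes encode the general cytosolic partners of HSP70 and, with Dnaja3, a mitochondrial one. All 4 were called, 2 in each direction, where 68.6% of all genes were called. Dnaja1 fell by 1.08 on the log2 scale (SE 0.132, adjusted p = 1.86e-06, edgeR), from 631, 789 and 965 CPM (lowest, median, highest) to 332, 346 and 450. Dnaja3 fell by 1.29 (SE 0.171), from 75.3, 91.6 and 111 to 25.7, 36.8 and 62.9 CPM. Dnaja2 rose by 0.60 ± 0.131 (adjusted p = 0.000625), from 371, 460 and 498 to 525, 667 and 821 CPM, and Dnaja4 by 0.88 ± 0.221 (adjusted p = 0.00199), from 7.61, 13.9 and 16.8 to 17.3, 20.8 and 35.2 CPM. All 4 had separate stages, and the Dnaja4 call was lost with library totals alone (adjusted p = 0.0544).

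Of 8 DNAJB genes tested, 6 fell, 1 rose and 1 was not called, where 36.9% of all genes fell and 31.7% rose. Dnajb2, a ubiquitin-binding form known from neurons, fell by 3.41 (SE 0.315), from 14.1 to 25.7 CPM at GV to 1.09 to 3.85 at MII. Dnajb12, which sits in the ER membrane, fell by 2.95 (SE 0.317), from 20.7 to 31.5 CPM to 0.681 to 4.73. Dnajb6, a suppressor of protein aggregation, was the most abundant that fell, by 1.31 (SE 0.142, adjusted p = 4.95e-07, edgeR), from 531 to 843 CPM to 236 to 379. The one that rose was Dnajb4, by 0.69 ± 0.181 (adjusted p = 0.00282), from 305 to 703 CPM to 694 to 1166. Dnajb14, a relative of Dnajb12 in the ER membrane, had the largest counts of the subfamily and the widest spread, at 1699 to 6167 CPM at GV and 2107 to 8112 at MII, and was not called (log2 0.18 ± 0.322). Its highest values came from the fourth SN-MII library at 8112 CPM, the second NSN GV library at 6167 and the third NSN-MII library at 5767.

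DNAJC is the most varied group, in which many proteins keep little beyond the J domain. Among the 25 tested, 13 fell, 7 rose and 5 were not called, where 36.9% of all genes fell and 31.7% rose. Dnajc11, a mitochondrial protein tied to cristae, fell 14.2-fold, from 659, 835 and 934 CPM (lowest, median, highest) to 37.7, 56.2 and 78.0 (log2 -3.83 ± 0.189, adjusted p = 6.92e-11, edgeR). Dnajc15, of the mitochondrial inner membrane, fell by 4.82 (SE 0.347), from 27.0 to 80.1 CPM to 0.618 to 2.57. Dnajc5g, a cysteine string protein, held 3.79 to 10.5 CPM at GV and 3 counts or fewer in every MII library, at least 19-fold lower against a floor of 3 counts per library. Dnajc7, which binds both HSP70 and HSP90, fell by 1.74 (SE 0.211, adjusted p = 1.71e-06), from 73.4 to 122 CPM to 12.4 to 59.0.

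Those that rose included a gene of the ER stress response, Dnajc3, a partner of BiP in the ER lumen. It held 432, 357 and 367 CPM in SN GV, 282, 225 and 350 in NSN GV, 820, 798, 961 and 945 in SN-MII and 808, 785 and 995 in NSN-MII oocytes. The stages lay far apart, and Dnajc3 rose by 1.39 ± 0.139 (adjusted p = 1.88e-07, edgeR). Dnajc13, which acts on endosomes, rose by 0.87 ± 0.241 (adjusted p = 0.00413), from 14.4 to 59.4 CPM to 61.2 to 97.7. Dnajc8, found with the spliceosome, and Dnajc10, an ER disulfide reductase, were called with smaller rises of 0.45 ± 0.158 (adjusted p = 0.0193) and 0.48 ± 0.181 (adjusted p = 0.0266). Both calls were lost with library totals alone (adjusted p = 0.298 and 0.42), and Dnajc13 then had an adjusted p of 0.0509. Leaving out the third SN GV library, or the first NSN GV library for Dnajc8 and the second NSN GV or first NSN-MII library for Dnajc10, also ended these calls (adjusted p of 0.0515 to 0.066).

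Small HSPs hold unfolded proteins without ATP. Hspb1 spanned 4.52 to 22.8 CPM at GV and 3.85 to 22.2 at MII (log2 0.0058 ± 0.4), and Hspb6 2.0 to 8.86 and 4.16 to 12.1 (log2 0.0037 ± 0.355), neither called. Hspb11, whose product is a ciliary transport protein rather than a folding factor, fell by 0.98 (SE 0.301, adjusted p = 0.00867, edgeR). The other 5 small HSP genes had too few counts to test. Of the 3 genes outside the families, Hspbap1 and Hspbp1 were tested and neither was called (log2 0.21 and -1.16). Altogether 18 of the 84 genes were not tested, with at most 14 counts in any library, and Dnajb8, Hspa12b and Hspb2 had none in any of the 13.

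The same stage comparison within each oocyte type asks whether both types change alike. In SN oocytes 8 of the 66 genes rose and 26 fell, where 56.3% of all genes were called (25.1% higher, 31.2% lower). With one library left out 4 to 9 rose and 22 to 30 fell. The number that rose was 4 without the first or the third SN GV library, 5 without the second SN GV, the second SN-MII or the fourth SN-MII library, and 9 without the third NSN-MII library, which enters through the shared fit. It was 3 with library totals and 5 with the replicate number as a block. In NSN oocytes 14 rose and 23 fell, where again 56.3% of all genes were called (25.4% higher, 30.8% lower). Hspa8 fell by 4.54 in SN (SE 0.327) and by 3.89 in NSN oocytes (SE 0.358), and Cct5 by 4.15 (SE 0.204) and 3.72 (SE 0.225). Hspa4l had a log2 fold change of 0.27 ± 0.218 in SN oocytes, not called, and rose by 1.05 ± 0.234 in NSN oocytes (adjusted p = 0.00113, edgeR). Dnajc7 fell by 2.38 (SE 0.289) in SN and by 1.10 (SE 0.306) in NSN oocytes. Of the 4 DNAJA genes, 2 fell and 0 were called higher in SN oocytes, while 2 fell and 2 rose in NSN oocytes. Yet Dnaja2 was also higher without overlap in SN oocytes, from 432 to 498 CPM at GV to 525 to 725 at MII. So was Dnaja4, from 12.5 to 16.3 CPM to 17.3 to 20.8. Of Hspd1 and Hspe1, 0 were called in SN oocytes, while 1 rose and 1 fell in NSN oocytes. Though not called, Hspe1 was lower without overlap in SN oocytes too, from 132 to 169 CPM at GV to 87.8 to 126 at MII. The difference between the types was itself tested, by an interaction term, and none of the 66 genes was called, where 0.0176% of all genes were.

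By unadjusted p under 0.05 the interaction gave 4 of the 66 genes, against 5.33% of all genes, and DESeq2 called none of them. The smallest p was that of Dnajc7 (difference of log2 fold changes 1.28 ± 0.416, adjusted p = 0.676, edgeR), followed by Hspb1 (2.05 ± 0.813, adjusted p = 0.823) and Hspa4l (0.79 ± 0.317, adjusted p = 0.83). Counts were also simulated at this depth and size, with the same spread for every gene and 200 changed genes. There the interaction recovered 2 of 100 genes changed by 1 on the log2 scale and 29 of 100 changed by 2. In that setting it missed most changes of either size, and genes with a smaller or larger spread were not simulated.

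NSN and SN oocytes were then compared within each stage, the contrast the sort was made for. At GV none of 65 chaperone genes tested was called, nor any of 10839 genes (0.0%), by edgeR or DESeq2. By unadjusted p under 0.05 there was 1 of the 65, against 1.75% of all genes. That gene was Hspb1, at 22.2, 22.8 and 10.3 CPM in SN GV and 4.52, 6.24 and 13.4 in NSN GV oocytes (log2 -1.19 ± 0.466, adjusted p = 1, edgeR). The groups overlapped through the third oocyte of each. CPM did not overlap between types for 4 of the 65 genes, against 6.04% of all genes: Dnajb12 was higher and Dnajc3, Dnajc10 and Hspb11 were lower in the NSN GV oocytes. Hspa8 and the CCT genes overlapped between the types at GV, where the largest log2 difference among the 7 CCT genes tested was 0.42.

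At MII, oocytes matured from NSN and SN showed no called difference among 61 chaperone genes tested, where 0.259% of all genes were called. By unadjusted p under 0.05 there were 9 of the 61, against 9.38% of all genes, and CPM did not overlap between the types for 8 of the 61 (6 higher and 2 lower in NSN-MII), against 10.2%. The share of positive differences was 38 of 61, against 52.0% of all genes, with a median log2 difference of 0.17 against 0.019. Dnajc10 had the smallest p. It held 85.9, 135, 135 and 137 CPM in SN-MII and 71.8, 72.3 and 66.5 in NSN-MII oocytes, each NSN-MII value lying below each SN-MII value (log2 -0.81 ± 0.203, adjusted p = 0.148, edgeR).

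Dnajc7 differed the other way, at 19.1, 21.7, 21.7 and 12.4 CPM in SN-MII and 59.0, 29.9 and 32.6 in NSN-MII oocytes, again without overlap (log2 1.11 ± 0.308, adjusted p = 0.203, edgeR). DESeq2 called both Dnajc10 and Dnajc7 (adjusted p = 0.0172 and 0.0334). Hspa9 held 492, 453, 437 and 369 CPM in SN-MII and 607, 630 and 636 in NSN-MII oocytes (log2 0.51 ± 0.145, adjusted p = 0.218, edgeR). All NSN-MII values were above all SN-MII values, as they also were for Hspd1, Hspa4l, Dnaja4 and Dnajc1. Dnajc19, of the mitochondrial import motor, lay below as Dnajc10 did, at 13.7 to 17.0 CPM in SN-MII (mean 15.7 ± 1.43, SD, n = 4) and a mean of 11.2 ± 0.349 CPM in NSN-MII oocytes (SD, n = 3). The part of the lower oocyte marker sum of NSN-MII oocytes in these differences was not tested. With edgeR and all libraries, none of these passed the threshold over all genes.

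The MII comparison leaned on the third NSN-MII library, the one with the fewest genes. Without it, edgeR called 233 genes in place of 26, and 3 chaperone genes among them: Hspa8 (log2 0.85 ± 0.184, adjusted p = 0.0377) and Hspd1 (0.82 ± 0.18, adjusted p = 0.0384) were higher and Hspbap1 (-0.85 ± 0.199, adjusted p = 0.0474) lower in NSN-MII oocytes. The values behind the first are plain in the CPM above, where the 2 remaining NSN-MII oocytes held 123 and 112 CPM of Hspa8, the SN-MII oocytes 56.9 to 76.9 and the third NSN-MII oocyte 35.8.

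**Figure D5:**
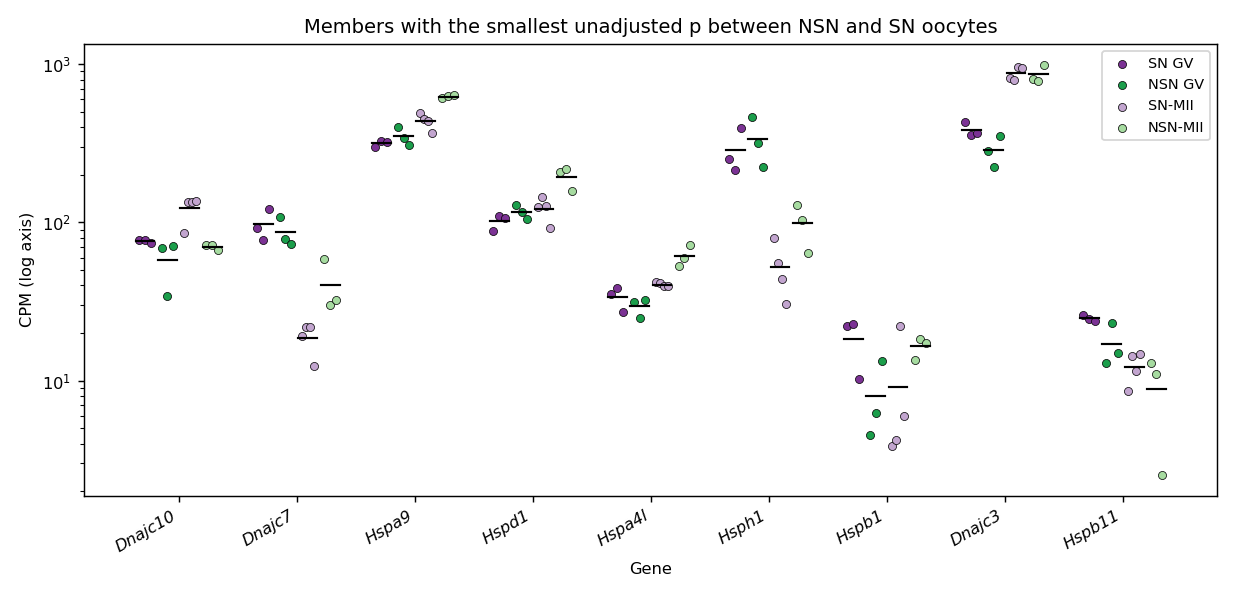
Each point is the CPM (log axis) of one gene in one oocyte for chaperone genes with the smallest unadjusted p between NSN and SN oocytes at GV, at MII or in the interaction, coloured by group, with bars at group means. At MII Dnajc10 lies at 66.5 to 72.3 CPM in NSN-MII and at 85.9 to 137 in SN-MII oocytes, but no difference between the types passed the adjusted threshold in edgeR with all libraries, while DESeq2 called Dnajc10 and Dnajc7 at MII.

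Partners of these chaperones, taken as lists, were examined in the stage comparison, where 68.6% of all genes were called and the median log2 fold change of all genes was -0.10. Of 5 genes tested from a list of heat shock factors, Hsbp1 and Hsf2bp, 4 rose, none fell and the median was 0.81. Hsbp1 and Hsf2bp are named for binding heat shock factors and are not such factors themselves. Hsf1, the main activator of heat shock genes, went from 102, 119 and 151 CPM (lowest, median, highest) at GV to 199, 242 and 334 at MII (log2 1.06 ± 0.161, adjusted p = 1.82e-05, edgeR), and Hsf2bp, a meiotic recombination protein named for binding HSF2, rose by 1.16 ± 0.154. Of 12 HSP70 cochaperones, 1 rose and 7 fell (median -1.31), with Sil1, an exchange factor of BiP, lower by 4.33 (SE 0.261) and Sgta, which hands membrane proteins on, lower by 3.55 (SE 0.17).

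HSP90 cochaperones were split, with 9 of 17 higher and 6 lower (median 0.41). Nudc fell by 4.56 (SE 0.202), from 678, 825 and 979 to 17.5, 35.6 and 54.5 CPM, and Ttc4 by 3.14 (SE 0.171). Prefoldin and the partners of the CCT ring gave 2 of 13 higher and 9 lower (median -1.78), among them Txndc9, which binds the ring, at 539, 780 and 865 CPM at GV and 42.0, 67.0 and 73.3 at MII (log2 -3.63 ± 0.16). All 5 tubulin cofactors, which take tubulin from the ring, fell (median -2.0), with Tbcb lower by 3.01 (SE 0.223) and Tbcc by 2.82 (SE 0.242). ER folding genes gave 4 of 11 in each direction (median -0.30), with Calr lower by 2.44 (SE 0.168) and Manf by 3.04 (SE 0.294). Of 14 chaperone genes with other symbols 4 rose and 9 fell (median -1.16), including the ribosome-bound Naca (log2 -3.23 ± 0.2) and the mitochondrial HSP90 Trap1 (log2 -4.16 ± 0.327).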

How the data were processed

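Single-oocyte SMART-seq2 libraries (13 oocytes, 4 groups taken from the sample titles) were trimmed with Trim Galore 0.4.4, mapped to mm10 with Bowtie2 2.3.5 and quantified with RSEM 1.2.28 by the authors, per the labels and the study's methods. The deposited tables hold RSEM expected counts, of which 18939 genes were used, and FPKM, whose length is set by RSEM for each library. Expected counts were rounded to whole numbers. edgeR 4.0.16 (R 4.3.3) was run on all genes with filterByExpr, TMM and quasi-likelihood tests, with the Benjamini-Hochberg adjustment over all genes tested and a threshold of 0.05. All 13 libraries entered the stage comparisons and the interaction, and the libraries of one stage entered each NSN to SN comparison. CPM used TMM factors over the 13 libraries. DESeq2 1.42.0 and limma 3.58.1 on log2(FPKM + 1), with a mean FPKM of at least 1, were among the alternatives. All pairs of replicates differed by more than sampling noise.

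Symbols matched one GENCODE M21 gene each for all 84 members. The members, the subfamilies and the lists were chosen with earlier results of these data known, so no test over a list was run. Genes named are, in each subfamily, the 3 with the highest mean FPKM and up to 3 called higher and 3 called lower with the largest change and no overlap between stages. The subunits of the CCT ring, the pair Hspa1a and Hspa1b, and the 3 members with the smallest p in each comparison of types or the interaction are named too, as are the 2 genes of each related list with the smallest p. Dnajb12 at GV, Dnaja4, Dnajc1, Dnajc14 and Dnajc19, and the members called without one library, were named after their values were seen. The expected counts of Cct6a, Cct7, Dnajb6, Dnajb14, Dnajc11, Dnajc14, Hspa1a, Hspa1b, Hspa4l, Hspa8, Hspa14, Hsp90aa1, Hsp90b1 and Hspb1 were not whole numbers in at least 8 of the 13 libraries, as happens where RSEM divides reads between loci, and are less certain. Counts were simulated from the mean levels and totals of these libraries, with 200 changed genes and the same spread for every gene. The stage comparison recovered 37 of 100 genes changed by 1 on the log2 scale and 100 of 100 changed by 2. The GV comparison of types recovered 18 and 79, and the MII comparison 15 and 95. These shares need not hold for genes with a smaller or larger spread, or where most genes change. Counts are reads without molecular identifiers. No spike-in was used here, so all values are shares of a library.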

Additional observations from a re-analysis of the deposited data

Results flagged for a closer look

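Among the 4 SN-MII oocytes, 5 chaperone genes had one oocyte far from the others by Dixon's criterion, of 52 sets of values examined. Chance alone gives about 1 in 20 such sets. Dnajc10 stood at 85.9 CPM in the first SN-MII oocyte and at 135 to 137 in the others. Hspb1 was 22.2 CPM in the third SN-MII oocyte against 3.85 to 5.99, and in the same oocyte Hspa1a was 4.47 CPM, against 0.272 or less. Cct6b was 0.525 CPM there, which is 4 reads, and 0 in the other 3, where any value above 0 meets the criterion. Hspbap1 was 112 CPM in the fourth SN-MII oocyte and 88.2 to 92.2 in the others. The groups of 3 oocytes were not examined in this way.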

How the results depend on the processing

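With library totals in place of TMM, which moved the median of all genes by -0.29 on the log2 scale, 8 members were called higher between stages in all oocytes, 3 in SN and 9 in NSN oocytes, against 17, 8 and 14. Members called higher in SN oocytes also numbered 5 with DESeq2 size factors, with limma on log2(FPKM + 0.1), with limma without a filter and with the replicate number as a block, and 4 to 9 with one library left out. Deviations from the group means correlated at -0.42 to 0.21 between same-numbered oocytes of different groups. Differently numbered oocytes were not compared, so these correlations cannot decide whether the numbers mark a pairing. With the block 2 genes in place of 26 were called between the types at MII, and the stage calls of Dnajc8, Dnajc10 and Hspa1a were lost (adjusted p = 0.062, 0.0624 and 0.0533).

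Between NSN-MII and SN-MII, DESeq2 called 1 member higher and 1 lower and 221 genes in all. All genes called numbered 16 with library totals, 89 without a filter, 9, 6 and 3 with limma (pseudocount 1, pseudocount 0.1, no filter), 69 with all libraries in one fit and 2 to 233 with one left out, when members numbered 0 to 2 higher and 0 to 1 lower. The interaction gave 36 genes with DESeq2, 6 without a filter, 1 with limma without a filter and 0 to 12 with one library left out.

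With limma on log2(FPKM + 1) the stage calls of Dnajc10, Dnajc13 and Hspd1 were lost (adjusted p = 0.14, 0.167 and 0.0566), and without a filter also that of Cct4 (adjusted p = 0.0528). Genes that changed sign had not been called by edgeR. With library totals the log2 fold changes were -0.22 (Cct8), -0.16 (Dnajb14), -0.0072 (Hsp90aa1), -0.21 (Hsp90b1), -0.26 (Hspb1), -0.30 (Hspb6) and -0.10 (Hspbap1). With limma they were, for pseudocounts of 1 and 0.1, -0.11 and -0.11 (Cct8), -0.0074 and -0.0074 (Dnajb14), -0.12 and -0.12 (Hsp90b1), -0.20 and -0.23 (Hspb1), -0.11 and -0.11 (Hspb6) and -0.31 and -0.32 (Hspbap1, adjusted p = 0.0459 and 0.0434). DESeq2 and its size factors gave -0.032 and -0.032 for Hspb1 and -0.034 and -0.035 for Hspb6. The block gave -0.093 (Dnajb14), -0.053 (Hspb1) and -0.032 (Hspb6). With one library left out the values were -0.16 to 0.42 (Dnajb14), -0.078 to 0.17 (Hsp90b1), -0.40 to 0.0050 (Hspa5), -0.47 to 0.30 (Hspb1) and -0.30 to 0.22 (Hspb6).

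Summed FPKM rescaled to one common total per library gave log2 ratios of MII to GV of -1.45 (CCT), -0.13 (DNAJA), -0.48 (DNAJC) and 1.05 (HSP90), against -1.73, -0.41, -0.77 and 0.77. One length per gene, an alternative chosen after seeing the data, gave -0.70 (DNAJA) and 0.16 (HSP90). For HSP110 it gave -2.02, against -1.56 in summed FPKM. The cause of the other shifts was not tested. Members under about 1 CPM rest on a few reads, so differences there were not detectable at this depth.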
